A study of Homo sapiens with 7 samples.

Results

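VIM, NES, SYNM, PRPH, INA, NEFL, NEFM and NEFH, the genes of vimentin, nestin, synemin, peripherin, alpha-internexin and the 3 neurofilament subunits, were followed across NGP neuroblastoma cells and lines of NGP with mutated ARID1A. The 8 genes were chosen by name, as the intermediate filaments of mesenchymal and progenitor cells on one side and of neurons on the other. The rule uses no measured value, but it was set with earlier results of these data known. All 8 were among the 28517 entries of the deposited tables, and 8 of 8 passed the filter on low values, which kept 14711 entries.

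RNA was sequenced from NGP, an established human neuroblastoma cell line with amplified MYCN. The product of ARID1A is part of the BAF complex, an ATP-driven remodeller that shifts nucleosomes and binds DNA. The groups were ARID1A-/- line 1 (2 libraries), ARID1A-/- line 2 (2 libraries), an ARID1A+/- line (1 library) and control NGP cells (2 libraries). Every group, the control included, was grown in medium with 10% serum and 0.5 µg/ml puromycin. Each replicated group had 1 library from the SMARTer Universal Low Input kit (SMARTer below) and 1 from the KAPA mRNA HyperPrep kit (KAPA below), and the ARID1A+/- line had a KAPA library. In the replicated groups the KAPA libraries are the ones titled as repeats. Kit therefore cannot be told apart from other differences between a library and its repeat. The labels do not give the mutations' positions in ARID1A, and they do not say whether a line is 1 clone or whether libraries of a group came from separate cultures. The p-values below therefore measure the spread between libraries, and that spread may be technical. Since there was 1 control line, the effect of the genotype cannot be told apart from other differences between lines.

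Intermediate filaments are rope-like cytoskeletal polymers of coiled-coil proteins, and each cell type builds them from its own set of family members. Vimentin forms the filaments of fibroblasts and other mesenchymal cells, and nestin is a large partner subunit of neural progenitors that needs a protein such as vimentin to assemble. Neurons build neurofilaments from the light, medium and heavy subunits with alpha-internexin or peripherin, the last of which is typical of peripheral and sympathetic neurons. Neuroblastoma arises from the sympathetic lineage, and its cells can take an adrenergic or a mesenchymal state, of which VIM is a commonly used mesenchymal marker.

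Between 24445301 and 43644361 reads were counted in each library. ARID1A itself was at 16.7 and 17.2 RPKM (reads per kilobase of gene length, scaled to the library's total) in line 1, 14.2 and 13.8 in line 2, 19.9 in the ARID1A+/- line, and 22.3 and 22.0 in the control, with the SMARTer library of each pair before the KAPA library here and below. It was thus lowest in the ARID1A-/- lines but not absent, and these tables do not show the mutation itself. The labelled cell type carried its markers: the summed level of 11 adrenergic neuroblast markers was 1090 to 1200 RPKM in line 1, 956 to 1200 in line 2, 887 in the ARID1A+/- line and 798 to 1070 in the control.

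VIM rose in the mean of the 2 ARID1A-/- lines to 2.71 times control. NES fell in line 2, NEFH rose in line 1, and both of these genes differed between the ARID1A-/- lines. INA, the most abundant neuronal filament gene in the control, varied least of the 8. In the single ARID1A+/- library VIM went the other way, at 9.34 RPKM against 44.5 in the control library of the same kit. Differences below are log2 fold changes fitted by edgeR to the counts of the 6 libraries of the replicated groups, with a term for the kit, and a gene is called at an adjusted p (Benjamini-Hochberg, over all 14711 entries) under 0.05.

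**Figure D1:**
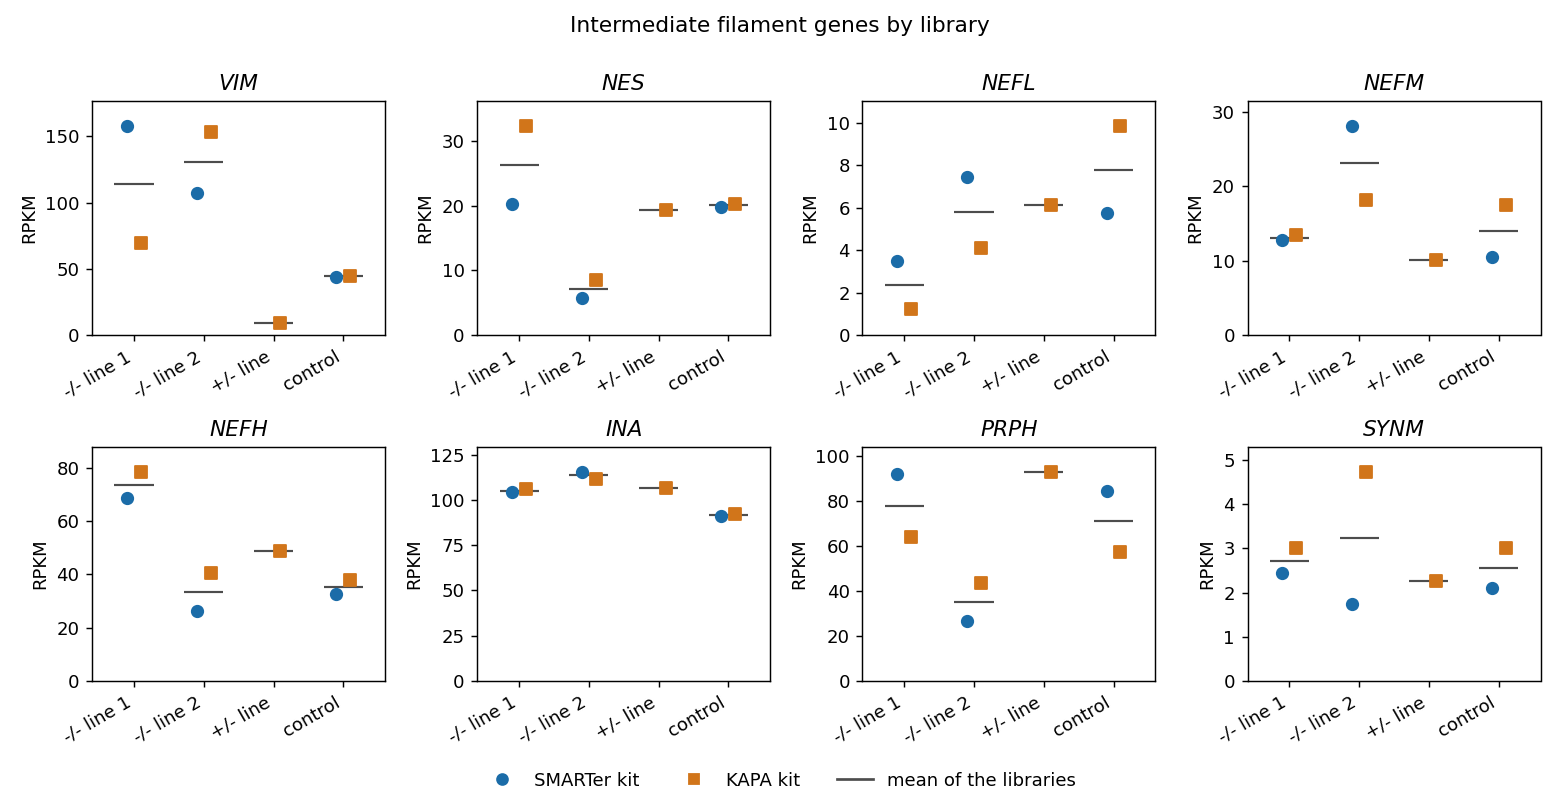
RPKM (y axis) of each of the 8 genes in every library, by group, with circles for the SMARTer kit, squares for the KAPA kit and a line at the mean of a group's libraries. All 4 ARID1A-/- libraries lie above the control for VIM, line 2 lies lowest for NES, and line 1 lies highest for NEFH.

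VIM was at 158 RPKM (SMARTer) and 69.7 RPKM (KAPA) in line 1, 107 and 153 RPKM in line 2, 9.34 RPKM in the ARID1A+/- line (KAPA), and 44.2 and 44.5 RPKM in the control. All 4 ARID1A-/- libraries were above both control libraries, and the ARID1A+/- library was below every other. The 2 libraries of line 1 were 2.26-fold apart, with the SMARTer library higher, while those of line 2 had the KAPA library higher and the control libraries were nearly equal. The mean of the ARID1A-/- lines was higher than control by 1.44 ± 0.34 (SE) on the log2 scale, with an interval of 0.62 to 2.26 (95%) and an adjusted p of 0.038 in edgeR's quasi-likelihood test. Line 2 was higher than control by 1.54 ± 0.38 (adjusted p 0.042, edgeR). Line 1 stood at 1.33 ± 0.38 against control and missed the threshold (adjusted p 0.067, edgeR). Line 1 minus line 2 was -0.21 ± 0.38, with an interval of -1.12 to 0.69 (adjusted p 0.76, edgeR).

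The call for VIM rests on few libraries. In edgeR the mean difference was 1.25 (adjusted p 0.31) without the SMARTer control library, 1.6 (0.17) without the KAPA control library, 1.06 (0.071) without the KAPA library of line 2 and 1.46 (0.11) without the kit term. The line 2 call was also lost in the absence of any of these, and in DESeq2 (adjusted p 0.065), with upper quartile scaling (0.0502) and in limma at a pseudocount of 0.1 (0.0504). Line 1 against control was 1.99 (adjusted p 8.2e-05, edgeR) without its own KAPA library and 0.48 (adjusted p 0.15) without its own SMARTer library. It was also called without either library of line 2 (1.25, adjusted p 0.031 and 0.034). Within the kits VIM was 3.57-fold (SMARTer) and 1.56-fold (KAPA) higher in line 1 than in control, and 2.42-fold and 3.44-fold higher in line 2. Ranked by RPKM among the 14711 entries, VIM stood at place 323 and 794 in line 1, 482 and 332 in line 2, 6234 in the ARID1A+/- library, and 1202 and 1366 in the control.

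In the ARID1A+/- library VIM was 4.77-fold lower than in the KAPA control library, 7.46-fold lower than in the KAPA library of line 1 and 16.4-fold lower than in that of line 2. The interval of the ratio to control, 4.37-fold to 5.21-fold (95%, exact, Clopper-Pearson), covers counting error only, and with 1 library there is no replicate check. Of the 14711 entries, 9.11% were at least 2-fold higher or lower in this library than in the KAPA control, on log2(RPKM + 0.1), and 5.53% were at least 2-fold lower. VIM was the only one of the 8 genes past 2-fold in either direction, and 232 entries (1.58%) were lower than control by more than VIM was.

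VIM is also abundant in fibroblasts, whose markers were therefore read beside it. The summed level of 9 such markers was 224 to 246 RPKM in line 1, 61.9 to 65.3 in line 2, 111 in the ARID1A+/- line and at most 101 in the control, so that it was highest in line 1 and lowest in line 2. Of the 9 markers 7 passed the filter, and in the mean of both lines 3 rose (DCN, LUM and COL3A1) and 1 fell (PDGFRB), beside 14.2% of all entries called. In line 1 against control 4 rose (LUM, COL3A1, COL1A1 and DCN), beside 13.0% of all entries. In line 2, 2 rose (DCN and LUM) and 2 fell (COL1A1 and PDGFRB), beside 14.0%. DCN, the proteoglycan decorin, was at 4.44 and 2.21 RPKM in line 1, 4.02 and 3.74 in line 2, 1.75 in the ARID1A+/- line, and 0.30 and 0.033 in the control. It rose by 4.24 in line 1 (adjusted p 0.0052, edgeR) and by 4.53 in line 2 (adjusted p 0.0037). The control levels of DCN were too low for these folds to be read closely. LUM, the proteoglycan lumican, was at 17.1 and 17.3 RPKM in line 1, 3.25 and 3.42 in line 2, 13.7 in the ARID1A+/- line, and 2.04 and 1.72 in the control. It rose by 3.2 in line 1 (adjusted p 0.00043, edgeR) and by 0.78 in line 2 (adjusted p 0.035). DCN and LUM were thus higher than in control in the ARID1A-/- libraries, as VIM was, and also in the ARID1A+/- library, in which VIM was lowest. COL1A1, a collagen chain, made up most of the line 1 sum, at 156 and 171 RPKM in line 1, 30.3 and 19.9 in line 2, 17.1 in the ARID1A+/- line, and 60.2 and 62.6 in the control. The other chain of the same collagen, COL1A2, was at most 0.034 RPKM in any library, and FAP, a marker of activated fibroblasts, was at 0 in all 7. The part of such cells in the VIM level was not tested. Endothelial markers summed to at most 0.225 RPKM in every group. In bulk RNA a change in the number of cells of one type and a change in RNA per cell cannot be told apart.

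NES was at 20.2 (SMARTer) and 32.2 (KAPA) RPKM in line 1, 5.74 and 8.44 RPKM in line 2, 19.4 RPKM in the ARID1A+/- line, and 19.8 and 20.2 RPKM in the control. Both line 2 libraries lay below all other libraries, and the KAPA library of line 1 lay above them all. NES fell by 1.57 ± 0.18 on the log2 scale in line 2 (adjusted p 0.0030, edgeR), a 2.97-fold lower level than in control. Line 1 stood at 0.35 ± 0.17 against control and was not called (adjusted p 0.23, edgeR). The difference between the lines was tested directly: NES was higher in line 1 than in line 2 by 1.92 ± 0.18, or 3.78-fold (adjusted p 0.0019, edgeR). The mean of the lines was lower than control by an amount (-0.61 ± 0.15, adjusted p 0.038, edgeR) that averages unlike lines. In edgeR that mean was not called without the SMARTer control library (-0.33, adjusted p 0.33), either line 2 library (-0.54, 0.094 and -0.68, 0.058) or the kit term (-0.59, 0.19), nor in limma at any pseudocount (adjusted p 0.064 to 0.067). Both the line 2 call and the difference between the lines were kept under all 16 alternatives tried.

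NES and VIM, whose proteins copolymerise, thus stood in different proportions in the libraries. The ratio of NES to VIM in RPKM was 0.128 and 0.463 in line 1, 0.0536 and 0.055 in line 2, 2.07 in the ARID1A+/- line, and 0.448 and 0.454 in the control. The control ratio was closely matched by the KAPA library of line 1, and both line 2 libraries lay lower than the rest.

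SYNM, whose product synemin bridges vimentin-type filaments to other structures, was low everywhere. It was at 2.44 and 3.0 RPKM in line 1, 1.73 and 4.74 RPKM in line 2, 2.26 RPKM in the ARID1A+/- line, and 2.11 and 3.0 RPKM in the control. The groups overlapped, and the KAPA library was the higher of each pair. No comparison of genotypes called it: the mean difference was 0.16 ± 0.26 (adjusted p 0.73, edgeR), with an interval of -0.45 to 0.77. By RefSeq's annotation SYNM overlaps TTC23, which has an entry of its own in the tables, and since the sources used here do not say whether reads were counted by strand, its counts are uncertain.

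NEFL encodes the light subunit, the core on which neurofilaments assemble. It was at 3.49 (SMARTer) and 1.23 (KAPA) RPKM in line 1, 7.48 and 4.09 RPKM in line 2, 6.13 RPKM in the ARID1A+/- line, and 5.74 and 9.85 RPKM in the control. Both line 1 libraries were below every other library, and line 2 overlapped the control. The kits moved apart in opposite directions: the SMARTer library was higher in each ARID1A-/- line and lower in the control. NEFL stood at -1.87 ± 0.51 in line 1 against control (adjusted p 0.058, edgeR) and at -0.59 ± 0.48 in line 2 (adjusted p 0.46, edgeR), and neither was called. Line 1 minus line 2 was -1.28 ± 0.48 (adjusted p 0.14, edgeR), also not called. Line 1 against control was called with no filter on low values (-1.84, adjusted p 0.020, edgeR), without the SMARTer control library (-2.83, 0.018) and without its own SMARTer library (-2.68, 0.0049). It was smaller without the KAPA control library (-0.86, 0.19) and without its own KAPA library (-1.13, 0.079). Line 1 minus line 2 was called without either control library (-1.36, adjusted p 0.030 and 0.026, edgeR) and without the SMARTer library of line 1 (-2.22, 0.013). It was -0.67 (0.27) without the KAPA library of line 1.

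NEFM encodes the medium subunit, whose tail projects sideways from the filament. It was at 12.8 and 13.4 RPKM in line 1, 28.1 and 18.2 RPKM in line 2, 10.2 RPKM in the ARID1A+/- line, and 10.6 and 17.4 RPKM in the control. Both line 2 libraries were above all the rest, the lower of them only slightly. Line 1 minus line 2 was -0.78 ± 0.27 for NEFM and was not called by edgeR (adjusted p 0.12), while DESeq2 called it (-0.77, adjusted p 0.041). In edgeR that difference was -1.20 without the KAPA library of line 2 and -0.235 without the SMARTer library of line 2. NEFM stood at 0.70 ± 0.28 in line 2 against control (adjusted p 0.14, edgeR) and -0.08 ± 0.27 in line 1 (adjusted p 0.87, edgeR), and neither was called. In line 2 it was 1.16 (adjusted p 0.048, edgeR) without that line's KAPA library and 0.20 (adjusted p 0.72) without its SMARTer library.

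NEFH encodes the heavy subunit, the last of the triplet to appear as axons mature. It was at 68.7 and 78.6 RPKM in line 1, 26.3 and 40.5 RPKM in line 2, 48.7 RPKM in the ARID1A+/- line, and 32.8 and 37.7 RPKM in the control. Both line 1 libraries were above all others, and line 2 spanned the control. The mean of the lines, which averages unlike lines, stood at 0.47 ± 0.14 against control. It was not called by edgeR (adjusted p 0.071), while DESeq2 called it (0.46, adjusted p 0.022). NEFH rose in line 1 by 1.07 ± 0.16 (adjusted p 0.0082, edgeR), and within the kits it was 2.1-fold (SMARTer) and 2.09-fold (KAPA) higher than control. In line 2 it stood at -0.14 ± 0.16 (adjusted p 0.61, edgeR). The lines differed by the direct test: NEFH was higher in line 1 than in line 2 by 1.21 ± 0.16, or 2.31-fold (adjusted p 0.0060, edgeR). The call against control was lost without the SMARTer control library (1.16, adjusted p 0.063, edgeR) and without the KAPA control library (0.96, adjusted p 0.076), and the difference between the lines was called in all 16 alternatives.

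The triplet therefore differed in its proportions. The ratio of NEFH to NEFL in RPKM was 19.7 and 64.1 in line 1, 3.52 and 9.89 in line 2, 7.95 in the ARID1A+/- line, and 5.71 and 3.83 in the control. Line 1 had the highest ratio with either kit, and line 2 overlapped the control. Summed over NEFL, NEFM and NEFH, the level was 85.0 and 93.3 RPKM in line 1, 61.9 and 62.7 in line 2, 65.0 in the ARID1A+/- line, and 49.1 and 65.0 in the control.

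INA encodes alpha-internexin, a subunit that copolymerises with the neurofilament triplet. It was at 104 and 106 RPKM in line 1, 116 and 112 RPKM in line 2, 107 RPKM in the ARID1A+/- line, and 91.1 and 92.5 RPKM in the control. All 5 mutant libraries were above both control libraries, by a small margin. The mean difference was 0.24 ± 0.10 (adjusted p 0.17, edgeR), with an interval of 0.00 to 0.47, and was not called. Libraries of one group differed little, and line 1 minus line 2 was -0.07 ± 0.11 (adjusted p 0.74, edgeR).

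PRPH encodes peripherin, the filament protein of peripheral and sympathetic neurons. It was at 92.0 and 63.8 RPKM in line 1, 26.8 and 43.7 RPKM in line 2, 93.0 RPKM in the ARID1A+/- line, and 84.4 and 57.2 RPKM in the control. Both line 2 libraries were below all others. Line 1 and the control had the SMARTer library higher, and line 2 had the KAPA library higher. PRPH stood at -1.01 ± 0.32 in line 2 against control and was not called by edgeR (adjusted p 0.085), while DESeq2 called it (-1.02, adjusted p 0.0061). Line 1 minus line 2 was 1.16 ± 0.32 (adjusted p 0.064, edgeR), which DESeq2 also called (1.16, adjusted p 0.0012). Without the KAPA library of line 2, edgeR called PRPH lower in line 2 than in control (-1.73, adjusted p 0.0045) and higher in line 1 than in line 2 (1.87, adjusted p 0.0043). Without the SMARTer library of line 2 these differences were -0.42 (adjusted p 0.28, edgeR) and 0.57 (adjusted p 0.17). The line 2 difference was also called without either line 1 library (-1.06, adjusted p 0.012 and 0.011), and that between the lines without the KAPA library of line 1 (1.5, adjusted p 0.013). In line 1 the difference from control was 0.15 ± 0.31 (adjusted p 0.80, edgeR).

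**Figure D2:**
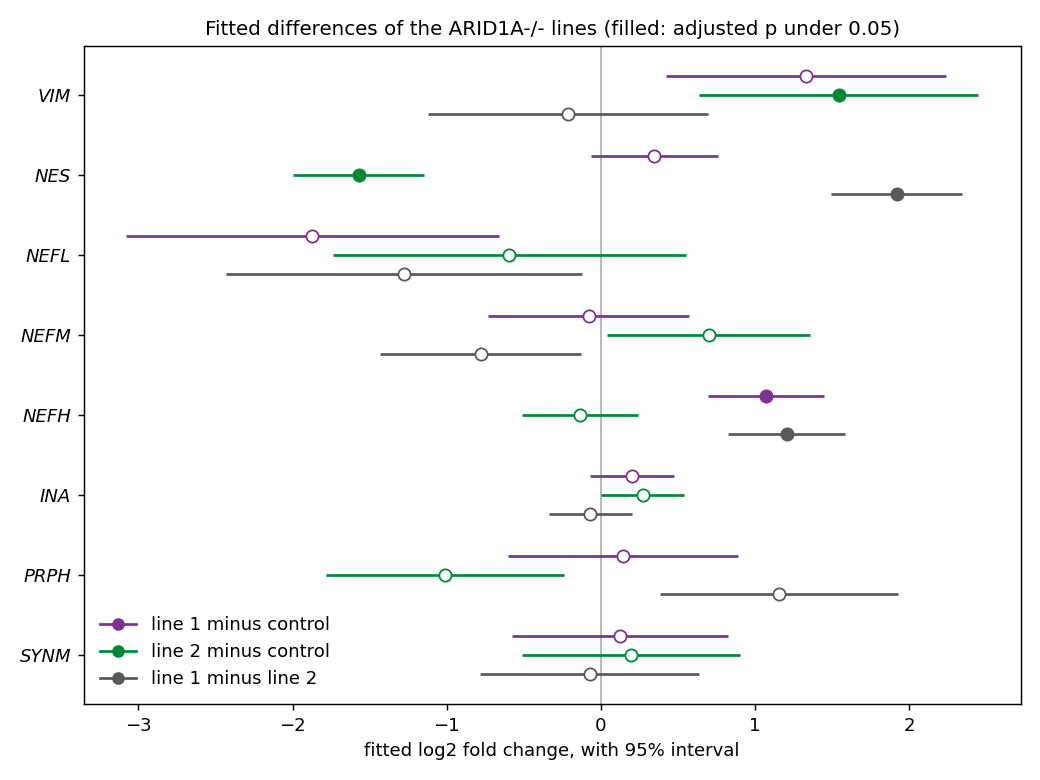
Fitted log2 fold changes (x axis) of the 8 genes with 95% intervals from edgeR, for line 1 minus control, line 2 minus control and line 1 minus line 2; filled points have an adjusted p under 0.05. NES and NEFH are filled for line 1 minus line 2 (1.92 and 1.21), and the VIM interval for that comparison spans 0.

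Counted over the 8 genes, 2 were called in the mean of both ARID1A-/- lines against control (VIM higher and NES lower), beside 14.2% of all entries tested. In line 1 against control 1 was called (NEFH, higher), beside 13.0% of all entries. In line 2 against control 2 were called (VIM higher, NES lower), beside 14.0%, and between the lines 2 were called (NES and NEFH, both higher in line 1), beside 12.8%. With 8 genes a share this near the background is no result about the genes as a group. The 8 genes' median log2 fold change was 0.20 for the mean of the lines, 0.17 for line 1 and 0.03 for line 2, beside medians of 0.02, 0.01 and 0.02 over all entries. The comparisons with control share the control libraries and are not independent of each other. Between the kits edgeR called 0 of the 8 genes, beside 13.3% of all entries. At an unadjusted p under 0.05 edgeR also had 0 of them, and DESeq2 and limma called 0. The kit contrast is also the contrast of the first libraries with their repeats.

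**Figure D3:**
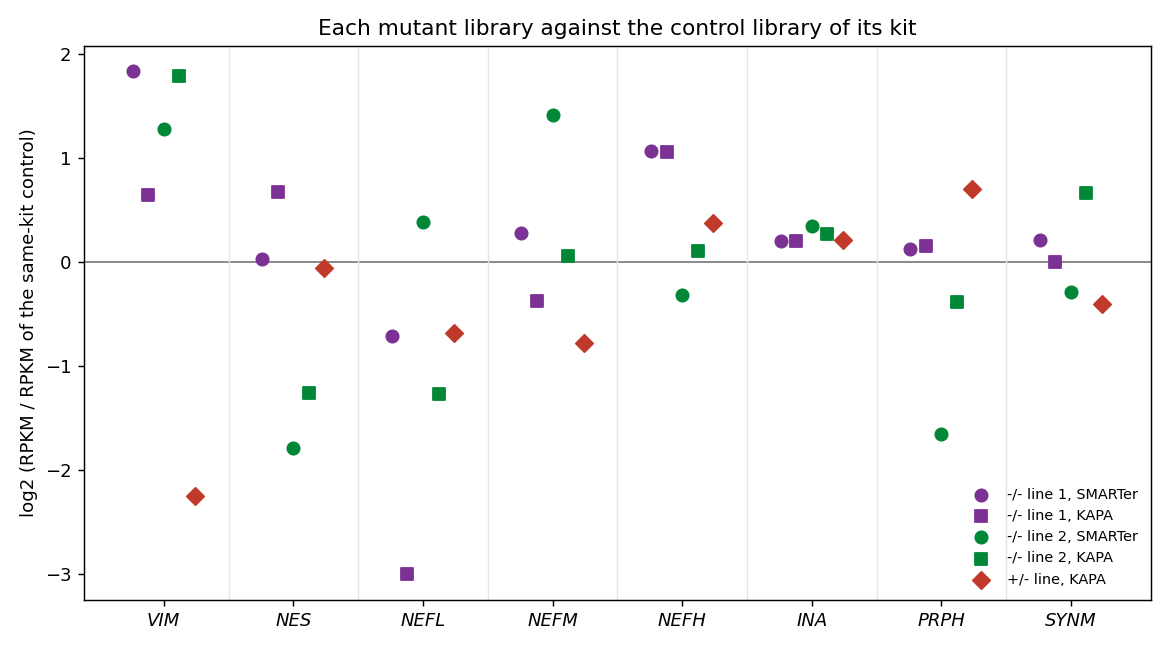
Log2 ratio (y axis) of each mutant library's RPKM to that of the control library made with the same kit, for the 8 genes; colours mark the line and shapes the kit. The line 1 points for NEFH nearly coincide (1.07 and 1.06), while those for NEFL lie far apart (-0.72 and -3.01), and the ARID1A+/- point for VIM stands at -2.25.

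The makeup of the filament pool, read as shares of the summed RPKM of the 8 genes, shifted with VIM. VIM made up 34.1% and 18.9% in line 1, 33.6% and 39.9% in line 2, 3.16% in the ARID1A+/- library, and 15.2% and 15.8% in the control. Every ARID1A-/- library had a larger VIM share than either control library. The 5 neuronal genes NEFL, NEFM, NEFH, INA and PRPH made up 60.9% and 71.5% in line 1, 64.1% and 56.7% in line 2, 89.5% in the ARID1A+/- library, and 77.3% and 76.0% in the control. The lower share in the ARID1A-/- lines did not come with a uniformly lower level. Those 5 genes summed to 281.3 and 263.1 RPKM in line 1, 204.4 and 218.0 in line 2, 265.0 in the ARID1A+/- library, and 224.6 and 214.7 in the control. VIM was the most abundant of the 8 in the SMARTer library of line 1 and the KAPA library of line 2. It was the third in both control libraries and stood at place 6 of 8 in the ARID1A+/- library.

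**Figure D4:**
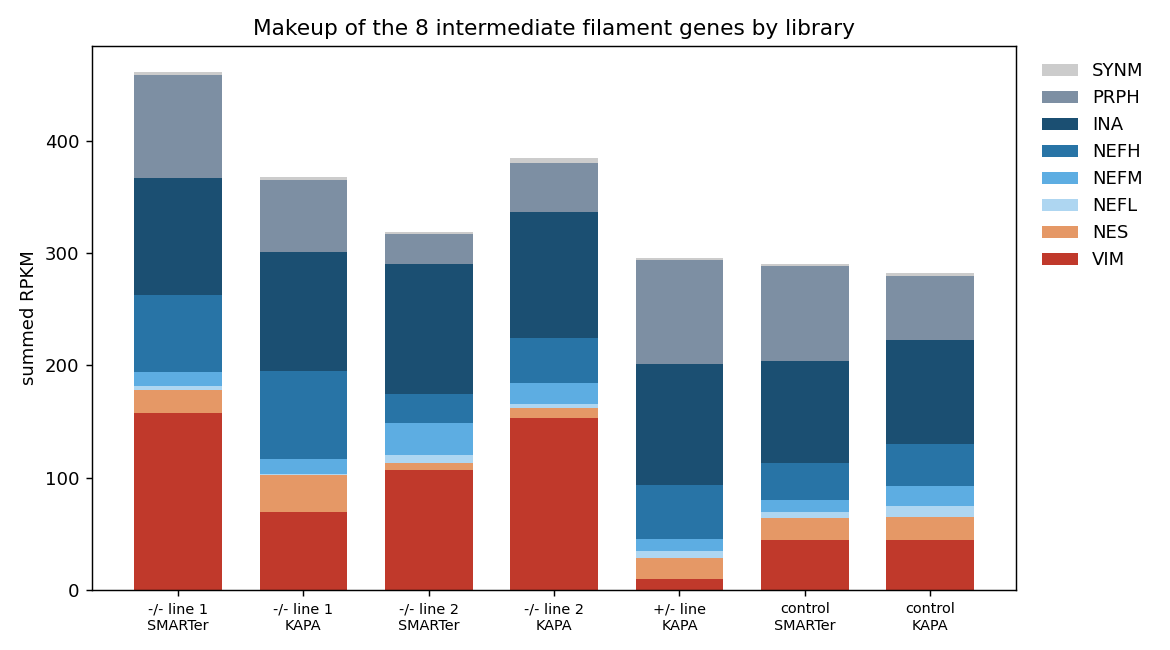
Summed RPKM (y axis) of the 8 genes in each library, stacked by gene. The VIM block at the base takes 18.9% to 39.9% in ARID1A-/- libraries, 3.16% in the ARID1A+/- library and 15.2% and 15.8% in control libraries.

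Promoter sequence, which the measured levels do not test, is given for VIM and NES, which edgeR called, for PRPH, which DESeq2 called in line 2 and edgeR did not, and for INA, whose level was the steadiest. Windows of 250 bases before to 50 after the start were taken from RefSeq's table (GRCh38.p14) for 5 of the 8 genes, and none is printed for NEFL, NEFM or NEFH. Each is printed 5′ to 3′ on the gene's strand, with capitals for matches on either strand to the GC box motif GGGCGG, the TATA box motif TATAAA, the AP-1 motif TGANTCA, the ZEB and SNAI E-box CACCTG, the MYC E-box CACGTG, and the GATA factor motifs AGATAA and also TGATAA.
VIM, chr10:17227991-17228290, plus strand: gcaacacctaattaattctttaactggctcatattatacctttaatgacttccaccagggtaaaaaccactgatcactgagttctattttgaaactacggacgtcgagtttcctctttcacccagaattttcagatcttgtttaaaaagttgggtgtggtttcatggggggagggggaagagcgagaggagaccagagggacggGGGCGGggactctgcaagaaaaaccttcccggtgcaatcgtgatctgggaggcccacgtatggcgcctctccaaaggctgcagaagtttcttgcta
NES, chr1:156677358-156677657, minus strand: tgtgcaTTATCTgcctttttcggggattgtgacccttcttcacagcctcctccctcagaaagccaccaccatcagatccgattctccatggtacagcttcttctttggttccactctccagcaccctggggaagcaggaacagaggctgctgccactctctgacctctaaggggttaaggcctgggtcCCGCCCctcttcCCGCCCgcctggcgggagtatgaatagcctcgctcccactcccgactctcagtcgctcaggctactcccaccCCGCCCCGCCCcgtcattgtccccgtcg
INA, chr10:103276888-103277187, plus strand: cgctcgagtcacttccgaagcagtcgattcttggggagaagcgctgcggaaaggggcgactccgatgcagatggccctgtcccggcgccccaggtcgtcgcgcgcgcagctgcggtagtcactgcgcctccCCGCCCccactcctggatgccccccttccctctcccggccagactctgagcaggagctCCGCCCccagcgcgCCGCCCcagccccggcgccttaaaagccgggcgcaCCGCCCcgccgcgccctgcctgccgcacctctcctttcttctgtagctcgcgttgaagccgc
PRPH, chr12:49294897-49295196, plus strand: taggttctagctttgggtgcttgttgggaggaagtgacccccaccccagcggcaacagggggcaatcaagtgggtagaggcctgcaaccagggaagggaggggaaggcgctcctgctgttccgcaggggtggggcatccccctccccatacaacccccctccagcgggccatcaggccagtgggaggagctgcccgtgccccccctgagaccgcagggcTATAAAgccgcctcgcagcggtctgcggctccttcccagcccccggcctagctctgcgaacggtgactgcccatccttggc

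VIM has 1 GC box match in this window, at -46 from the start, and NES and INA have 4 each, of which a pair in NES overlaps. NES also has 1 GATA match, and PRPH has a TATA box match at -31 and no GC box. Among the 35116 promoters of the table, 45.0% hold a GC box, 11.5% a TATA box and 16.3% a GATA match. AP-1 letters stood in 7.71% of them, CACCTG in 20.6% and CACGTG in 7.26%, and none of these 3 is in the windows printed. The GC content was 48.0% for VIM, 60.3% for NES, 71.3% for INA and 67.0% for PRPH, beside a median of 58.7% over the table. A match of letters is not evidence of a bound site, and SYNM's window, not printed, has 4 GC box matches and 1 CACCTG.

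Other intermediate filament genes were mostly silent or steady. Of 16 listed, 5 passed the filter (LMNA, LMNB1, LMNB2, KRT10 and KRT17). In the mean of both lines edgeR called 0 of these 5, beside 14.2% of all entries, with 1 at an unadjusted p under 0.05, and DESeq2 and limma called 0. KRT17, an epithelial keratin, was at 1.98 and 1.59 RPKM in line 1, 0.037 and 0 in line 2, 0.030 in the ARID1A+/- line, and 0.58 and 0.10 in the control. It was highest in both line 1 libraries. Against control edgeR called KRT17 higher in line 1 (2.53, adjusted p 0.027) and lower in line 2 (-4.02, adjusted p 0.031), so the mean of the lines averages opposite changes. It was also called higher in line 1 than in line 2 (adjusted p 0.0043, edgeR), at levels too low for its fold to be read closely. GFAP, the glial filament, and DES, the muscle filament, were below the filter.

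Linker proteins tie filaments to junctions, microtubules and actin. Of 8 listed 5 passed the filter, of which 2 rose and 1 fell in the mean of both lines, beside 14.2% of all entries called. The same counts, 2 and 1, held in line 2 against control, beside 14.0% of all entries. In line 1 edgeR called 0, beside 13.0%, with 1 higher and 1 lower at an unadjusted p under 0.05. There DESeq2 called 1 and limma 0. PLEC (plectin) rose by 0.75 (adjusted p 0.020, edgeR) and DST (dystonin) by 0.40 (adjusted p 0.046), while PPL (periplakin) fell by 1.33 (adjusted p 0.0097). In limma 0 of the 5 rose, with 2 at an unadjusted p under 0.05, and 1 fell. PLEC was at 2.09 and 2.49 RPKM in line 1, 2.33 and 3.22 in line 2, 1.35 in the ARID1A+/- line, and 1.46 and 1.47 in the control.

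Motors that carry neurofilaments along axons numbered 7, and all passed the filter. In the mean of both lines edgeR called 0, beside 14.2% of all entries, with 1 at an unadjusted p under 0.05. DESeq2 and limma each called 1. MYO5A, a myosin that binds neurofilaments, was lower in line 1 than in line 2 by a log2 difference of -1.15 (adjusted p 0.0043, edgeR). KIF5A, a kinesin heavy chain of neurons, was lower in line 1 than in line 2, at -0.79 (adjusted p 0.028, edgeR). Of 10 kinases and turnover genes, 1 fell in the mean of both lines by edgeR, beside 14.2% of all entries called. This was CDK5R1, the activator of the neurofilament kinase CDK5, by 0.53 (adjusted p 0.032, edgeR), while limma called 0 of the 10. In line 1 against control 1 rose, CDK1, by 0.64 (adjusted p 0.032, edgeR), beside 13.0% of all entries. In line 2 edgeR called 0, beside 14.0%, with 1 lower at an unadjusted p under 0.05, and DESeq2 called 1.

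Of 15 microtubule and axonal growth genes, 4 fell and none rose in the mean of both lines by edgeR, beside 14.2% of all entries called, with 2 higher at an unadjusted p under 0.05. DESeq2 called 2 higher and limma 0. The 4 were DPYSL3 (-1.43, adjusted p 0.00040, edgeR), TUBB3 (-0.68, 0.020), CRMP1 (-0.55, 0.024) and DCX (-0.49, 0.035), which encode collapsin response mediators, neuronal tubulin and doublecortin. DPYSL3 was at 10.1 and 13.2 RPKM in line 1, 12.2 and 12.4 in line 2, 64.2 in the ARID1A+/- line, and 29.4 and 34.4 in the control. It lay below control in all 4 ARID1A-/- libraries and above it in the ARID1A+/- library. The single lines had other counts. In line 1, 1 rose (GAP43, a growth cone protein, by 1.14, adjusted p 0.021, edgeR) and 2 fell (DPYSL3 and CRMP1), beside 13.0% of all entries. In line 2, 3 genes of microtubule-associated proteins rose and 3 fell (DPYSL3, TUBB3 and DCX), beside 14.0% of all entries. The 3 that rose were MAPT (by 1.18, adjusted p 0.0083, edgeR), MAP1A (1.21, 0.039) and MAP1B (0.51, 0.041). CRMP1 fell by 1.04 in line 1 (adjusted p 0.0056, edgeR) and stood at -0.07 in line 2 (adjusted p 0.78), and its difference between the lines was called (-0.97, adjusted p 0.0071).

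Among transcription factors of epithelial-mesenchymal transition, 6 of 7 passed the filter and 1 rose in the mean of both lines, beside 14.2% of all entries called. SNAI2 was at 13.2 and 6.01 RPKM in line 1, 7.30 and 10.5 in line 2, 7.98 in the ARID1A+/- line, and 3.55 and 2.06 in the control, a mean rise of 1.73 (adjusted p 0.027, edgeR). It was above both control libraries in all 5 mutant libraries, including the ARID1A+/- library in which VIM was lowest. SNAI1 fell by 1.83 in line 2 (adjusted p 0.020, edgeR) and was higher in line 1 than in line 2 by 1.85 (adjusted p 0.021). Of 13 neuronal transcription factors 12 passed, of which 2 rose and 5 fell in the mean of both lines, beside 14.2% of all entries; 2 of these are described here. POU3F2, a factor of neural progenitors, fell by 0.95 (adjusted p 0.0053, edgeR), and POU4F1, a factor of sensory neurons, rose by 0.70 (adjusted p 0.020, edgeR). Both means average unlike lines. POU3F2 stood at -1.40 in line 1 (adjusted p 0.0031, edgeR) and -0.50 in line 2 (0.076, not called). POU4F1 stood at 1.28 in line 1 (adjusted p 0.0043, edgeR) and 0.13 in line 2 (0.64, not called). Line 1 minus line 2 was called for POU3F2 (-0.90, adjusted p 0.014, edgeR) and for POU4F1 (1.15, 0.0063).

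Markers of Schwann and glial cells summed to 2.97 to 3.38 RPKM in line 1, 0.765 to 2.34 in line 2, 30.3 in the ARID1A+/- line and 30.3 to 42 in the control. Nearly all of it was NGFR, a neurotrophin receptor that neuroblastoma cells also express, at 2.05 and 2.72 RPKM in line 1, 0.73 and 0.16 in line 2, 29.9 in the ARID1A+/- line, and 40.8 and 29.8 in the control. NGFR fell by 5.09 on the log2 scale in the mean of both lines (adjusted p 0.00039, edgeR), and the libraries with the least of it were those of line 2. The part of such cells in the filament levels was not tested.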

How the data were processed

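RNA-seq of 7 libraries was analysed. The submitters' processing notes name the aligner HISAT2 (2.1.0) and the build hg19; which program counted reads, and on what annotation, is not given in the sources used here. The authors deposited for each library whole-number counts per gene and RPKM values, which equal the count divided by gene length and the library's total, to within 0.000501%. The labels name polyadenylated RNA, while their protocols for the SMARTer kit speak of ribosomal RNA removal, so RNA selection is uncertain.

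Counts of the 6 replicated libraries with a mean RPKM of at least 0.5 (14711 entries) were fitted with edgeR 4.0.16 (R 4.3.3; quasi-likelihood test, TMM scaling, group and kit terms, 2 residual degrees of freedom), with Benjamini-Hochberg adjustment over all entries. An SE is the fitted change over the root of its F statistic. The kit is the replicate block: its libraries are named by the labels' protocols and deviated together (r 0.51, 0.63 and 0.45 over the 3 pairs of groups). DESeq2 1.42.0 and limma 3.58.1 were alternatives. The ARID1A+/- library was compared by values only.

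Simulated on the mean ARID1A-/- minus control comparison with 14711 genes, 75 of 100 genes changed by a log2 size of 1 and 97 of 100 changed by 2 were recovered. Of the unchanged genes, 16 were called. The simulation had no kit effect and gave both lines the same change, so it does not measure recovery of changes in 1 line. The members and gene lists were chosen with earlier results of these data known. Named genes are the 8 filament genes, ARID1A and, of each list, those of up to 4 called genes with the lowest p that the text prints. Genes called in another comparison, COL1A1, COL1A2, FAP, GFAP, DES and POU4F1 were chosen after their values were seen. Sequences are RefSeq's, on GRCh38.p14.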

Additional observations from a re-analysis of the deposited data

Results flagged for a closer look

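NES and NEFH had different changes in the 2 ARID1A-/- lines by a test of the difference itself. For NES, line 1 minus line 2 was 1.92 ± 0.18 on the log2 scale (adjusted p 0.0019, edgeR), with line 1 at 0.35 and line 2 at -1.57 against control. For NEFH, line 1 minus line 2 was 1.21 ± 0.16 (adjusted p 0.0060, edgeR), with line 1 at 1.07 and line 2 at -0.14 against control. Both line 1 libraries were higher than both line 2 libraries for each gene.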

How the results depend on the processing

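Of 632 values of the filament genes under the 16 alternatives, 556 kept their direction and their side of the threshold, 20 lost the call, 32 gained one and 24 changed sign. NES in line 2, and NES and NEFH between the lines, were called under all 16.

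Without the replicate block (the kit term), edgeR called 592 genes for the mean of the lines, 475 for line 1, 519 for line 2 and 404 between the lines. Of the 8 filament genes it then called 0 for the mean, with 3 at an unadjusted p under 0.05, and 1 for line 2. The kit contrast could not be fitted without that term. With no filter on low values, 3147 genes were called for the mean of the lines. Of the filament genes, 4 were then called for the mean and 3 for line 1. For the mean of the lines, limma called 1 filament gene at each pseudocount (1, 0.5 and 0.1). For line 2, upper quartile scaling and limma at a pseudocount of 0.1 each called 1, and between the lines DESeq2 called 4. The NEFM kit difference changed sign in limma, to -0.046, -0.050 and -0.054 at pseudocounts of 1, 0.5 and 0.1.

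Leaving out each of the 6 libraries in turn gave 348 to 3570 called genes for the mean of the lines, 436 to 3028 for line 1, 408 to 3738 for line 2, 772 to 2407 between the lines and 0 to 2888 between the kits. The count of 0 came without either control library, with 3053 and 3103 genes at an unadjusted p under 0.05 in edgeR; DESeq2 and limma on all 6 libraries called 2655 and 2580. The filament genes called ranged over 1 to 3 for the mean, 0 to 2 for line 1, 1 to 3 for line 2, 2 to 4 between the lines and 0 to 1 between the kits. Log2 differences that changed sign ranged as follows. For the mean of the lines they were -0.19 to 0.83 (NEFM) and -0.15 to 0.40 (SYNM). For line 1 they were -0.56 to 0.45 (NEFM), -0.22 to 0.49 (PRPH) and -0.28 to 0.46 (SYNM). For line 2 they were -1.47 to 0.49 (NEFL), -0.40 to 0.087 (NEFH) and -0.42 to 0.69 (SYNM). Between the lines they were -1.01 to 0.50 (VIM) and -0.58 to 0.53 (SYNM), and between the kits -0.12 to 0.78 (VIM) and -0.21 to 0.47 (NEFM). The cause of these shifts was not tested. Where 1 library of a group is left, its spread is taken from the other groups. Depth was 24445301 counts or more in each library. SYNM and NEFL, the lowest of the 8 genes, had the fewest counts (4737 and 4992 over all libraries). How far depth limits these genes was not tested.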

Other observations

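Entries that lay closest to the filament genes over the 7 libraries were found by the root mean square difference of log2(RPKM + 1) profiles, each centred on its own mean, among 13949 entries. The nearest to VIM were BC078172 (0.128), TBX3 (0.366) and PRNP (0.425), beside a spread of VIM itself of 1.27. The nearest to NES were MICALCL (0.177), ADAMTS2 (0.21) and GAS2L3 (0.253). The profiles share libraries and depth, and the likeness is a description only.

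The entries BC078172, AK308605 and KIAA0845, named as cDNA clones, ran parallel to VIM, NEFM and NEFH. The count of BC078172 was 0.341 to 0.435 of that of VIM in every library, the count of AK308605 was 0.293 to 0.358 of that of NEFM, and the count of KIAA0845 was 0.648 to 0.679 of that of NEFH. Whether these pairs share reads was not tested, and the levels of VIM, NEFM and NEFH are uncertain to that extent.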
